A study of Mus musculus with 138 samples.

Results

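The genes described here are 10 of the 55487 genes in the count files, taken by name as a family of the extracellular matrix. They were chosen with earlier results of these data known. They are the fibrillins Fbn1 and Fbn2, elastin (Eln), the fibulins Fbln1, Fbln2, Fbln5, Efemp1 and Efemp2, and 2 genes whose proteins bind fibrillin, Adamtsl4 and Mfap2. Their RNA was measured in wild type C57BL/6J mouse embryos of 2 ages, E16.5 and E18.5 (days of embryonic development). Suture mesenchyme (SM), the unossified tissue that keeps skull bones apart, and the osteogenic fronts (OFs), the growing bone edges beside it, were cut out by laser capture from 4 calvarial sutures and sequenced in bulk. The coronal suture gave SM with a frontal and a parietal OF, the lambdoid suture gave SM with an interparietal and a parietal OF, the frontal suture gave SM with a frontal OF, and the sagittal suture gave SM with a parietal OF. With both ages these were 20 groups of 5 libraries, 100 in all, and each comparison of SM with the OF of the same suture and age was 5 libraries against 5. Same-numbered regions of a suture and age carried 1 litter id in the labels, and each id occurred at a single age. The 5 ids of a group differed, but many shared all but their last number, so that some samples of a group may be littermates. Single-cell RNA sequencing (scRNA-seq) of the coronal suture added 4 libraries, 2 at each age, each from sutures pooled over several embryos after the membranes were stripped off as far as possible. All 10 genes passed the filter on low counts and were tested among 19768 genes.

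Elastic fibres consist of cross-linked elastin laid onto a scaffold of microfibrils, and fibrillins are the main protein of those microfibrils. Fibulins are secreted glycoproteins. The short ones join elastin to microfibrils and bring in the enzymes that cross-link it, and the larger ones also bind basement membrane proteins, while microfibril-bound proteins such as Mfap2 and Adamtsl4 take part in building or anchoring the fibrillin network. Microfibrils also occur without elastin in dense connective tissue, and they store latent growth factors of the TGF-beta and BMP families next to bone-forming cells.

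The first libraries of the 20 groups held 7305627 to 34518477 counts each, with the coronal libraries at 20133332 or more and the lambdoid ones at 11294521 or fewer. Mitochondrial genes took 12.8% to 52.4% of the counts. The share was 25.7% to 52.4% in the coronal libraries of E16.5, with 17274 to 22824 genes detected, and 20.7% to 27.5% in those of E18.5, with 21273 to 25162 genes. The mitochondrial ranges overlapped only through SM replicate 2 of E16.5 (25.7%), as the other coronal libraries of that age held 30.6% or more. The ranges of genes detected also overlapped. The frontal libraries of E18.5 held 21.5% to 52.3%, with 20627 to 25727 genes. Their highest share was that of OF replicate 5 alone, the next being 35.6%. The region labels were checked against bone genes: Ibsp, an osteoblast matrix protein, had a mean of 89.6 CPM (counts scaled to a common library total) in SM and 6716 CPM in OFs, and 9 of 10 osteoblast markers were lower in SM in the mean of the 12 comparisons of SM with OF. Markers of other cells also differed in that mean, where 28.6% of all genes tested were higher and 27.9% lower. The 2 of 8 dura mater markers given next are near the first of these shares. All 6 ectocranial mesenchyme markers, 7 of 8 pericyte and smooth muscle markers, 7 of 7 macrophage markers, 6 of 8 suture mesenchyme markers, 3 of 6 hypodermis markers, 3 of 7 chondrocyte markers and 2 of 8 dura mater markers were higher in SM, whereas 5 of 5 proliferation markers were lower, with 1 lower in each of the pericyte, suture mesenchyme and chondrocyte lists, and 0 of 7 endothelial, 0 of 6 erythroid, 0 of 5 mast cell and 0 of 5 tested osteoclast markers passed. Of the skeletal muscle markers 1 of 3 tested was higher, of the Schwann cell markers 0 of 2, and none of the neutrophil or keratinocyte markers reached the filter. The summed level of the 6 hypodermis markers was 1356 to 4207 CPM in frontal, lambdoid and sagittal SM, 117 to 229 CPM in coronal SM and 59.2 to 974 CPM in the OFs. Most of that sum was Sfrp2, with a mean of 1951 CPM in SM and 268 CPM in OFs, while the defining markers Clec3b and Pi16 were at 0 in 25 and 9 of the 100 libraries. In the coronal scRNA-seq data Sfrp2 was among the leading genes of ectocranial mesenchyme-like cells at both ages, and not of hypodermis-like cells. The sum therefore does not set hypodermis apart from ectocranial mesenchyme. The part of these cells in the differences below was not tested. In bulk tissue, fewer cells of a type and less RNA per cell cannot be told apart.

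Compared per kilobase of annotated gene length, the members spanned a wide range of levels. Averaged over the 20 groups, Mfap2 reached 60.0 CPM per kb, Fbn1 49.3, Fbln2 48.8 and Fbn2 43.8, so that the fibrillins and 1 fibulin led together with the small microfibril protein. Elastin followed at 23.1 CPM per kb, then Fbln1 at 16.0, Efemp1 at 14.99, Efemp2 at 11.6 and Fbln5 at 7.00. Adamtsl4 was the lowest at 2.86 CPM per kb and was the only member at 0 in any of the 100 libraries, in 1 coronal SM library of E16.5. For 9 of the 10 genes, Efemp2 being the exception, the group with the highest mean was an SM group. All these levels are of the first libraries. Second libraries of 18 coronal samples, described below, held more Mfap2 (median 2.59 log2 units), Eln (1.35) and Fbn1 (0.16). The order of the genes can thus depend on the library.

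In the mm10 annotation of the count files the fibrillins lie on different chromosomes, Fbn1 (ENSMUSG00000027204.13) at chr2:125300594-125507993 and Fbn2 (ENSMUSG00000024598.9) at chr18:58008623-58210487, and so does elastin, Eln (ENSMUSG00000029675.12) at chr5:134702593-134747323. The fibulins are Fbln1 (ENSMUSG00000006369.14) at chr15:85205949-85286535, Fbln2 (ENSMUSG00000064080.12) at chr6:91212455-91272540, Fbln5 (ENSMUSG00000021186.9) at chr12:101746565-101819055, Efemp1 (ENSMUSG00000020467.15) at chr11:28853204-28926743 and Efemp2 (ENSMUSG00000024909.15) at chr19:5473954-5482517, and the fibrillin-binding genes Adamtsl4 (ENSMUSG00000015850.11) at chr3:95676201-95687917 and Mfap2 (ENSMUSG00000060572.17) at chr4:141010418-141015984. Counts are of reads in the exons of a gene. Fbn1, Fbn2, Eln and Efemp2 overlap a gene on the other strand (Gm9913, Gm26507, Gm30003 and Mus81), and counting did not use strand, so reads of those overlaps cannot be assigned with certainty.

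**Figure D1:**
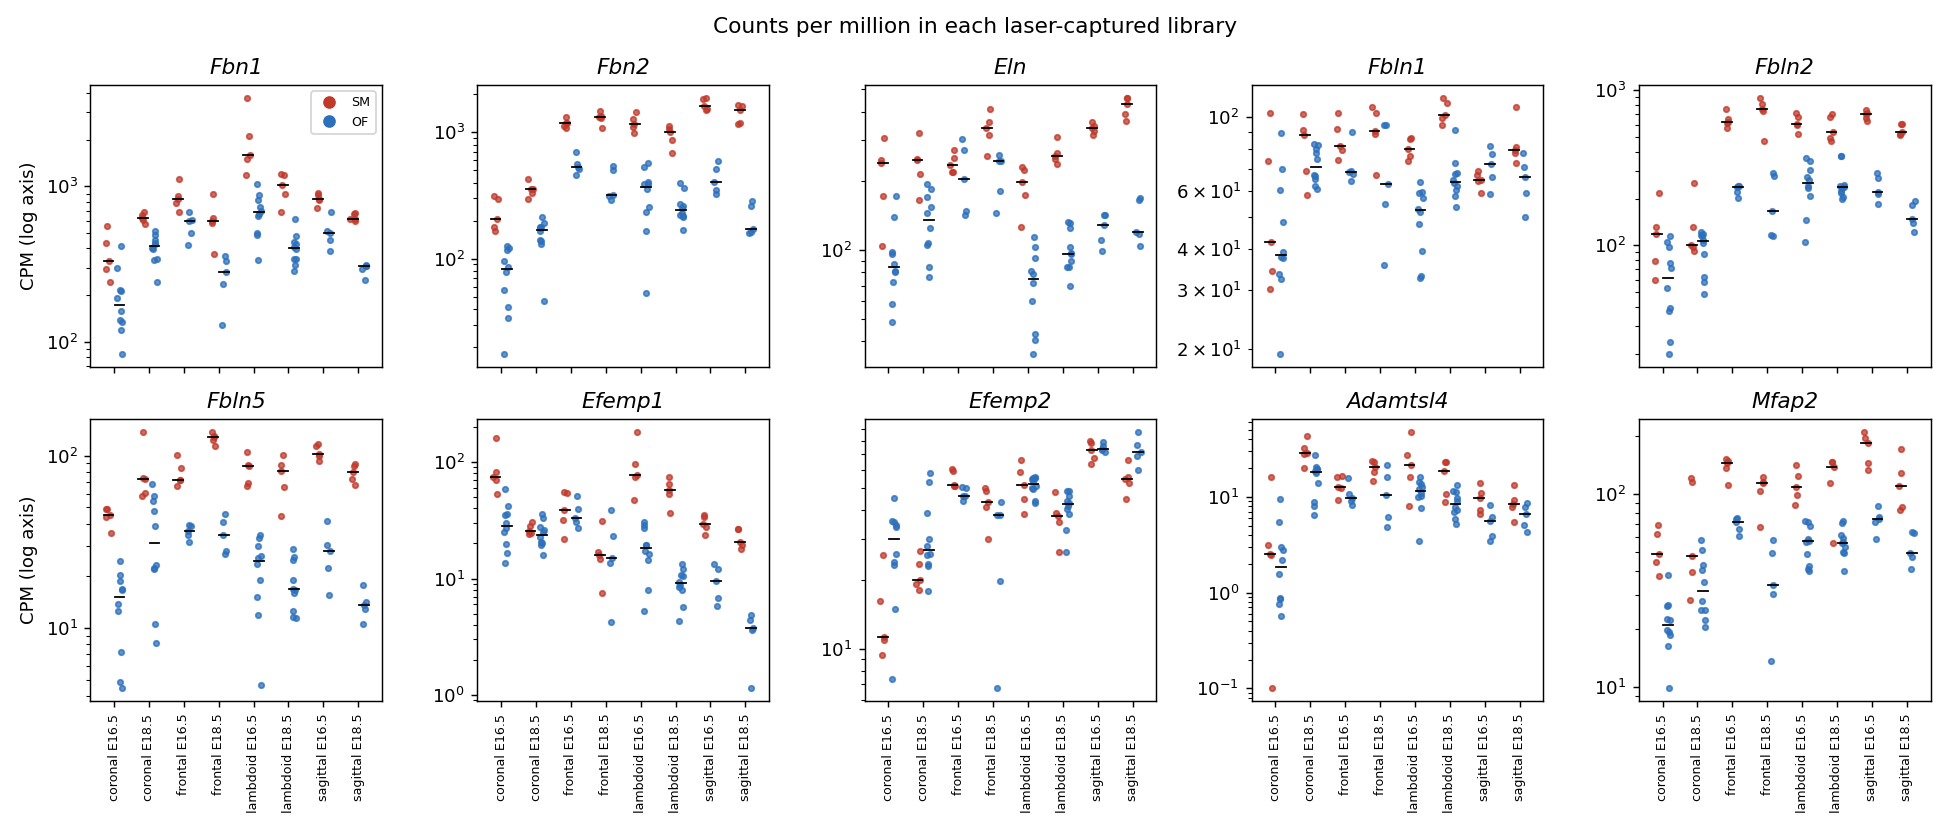
CPM of each of the 10 genes on a log axis in the 100 laser-captured libraries, with 1 panel per gene and the 4 sutures at both ages along the horizontal axis. Red points are SM libraries, blue points OF libraries (both OFs of the coronal and lambdoid sutures together), short lines are medians, and the 1 Adamtsl4 value of 0 is drawn at 0.1. SM points lie above the OF points of the same suture and age in all 12 comparisons for Fbn2, from 164 to 1881 CPM in SM and from 17.5 to 697 CPM in OFs. The SM and OF points of Efemp2 overlap in 11 of 12, and in the frontal suture at E16.5 SM lies above the OF.

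Promoter sequences were read for the members from RefSeq (build GRCm38.p6) as windows of 300 bases, from 250 bases before an annotated transcript start to 50 after it. Of the 10 genes, 8 had a window, 13 windows in all, and none was at hand for Eln or Fbn2. A GC box, the letters GGGCGG on either strand, was in 10 of the 13 windows and in all 8 genes, against 35.7% of 32851 windows over all genes. The CCAAT box was in 2 of the 13 windows, of Fbln5 and Mfap2 (37.4% of all windows), and the TATA box, TATAAA, in 0 of 13 (13.6%). The SMAD motif CAGACA was in 4 of 13, of Fbln1, Fbln5 and Mfap2 (21.0%), and the AP-1 motif TGANTCA in 1 of 13, of Efemp1 (7.81%). The members' windows held 48.7% to 78.3% G and C, against a median of 52.7% over all windows. These are letter matches, which can overlap each other, and binding was not measured. Windows of the same gene overlapped for Efemp2, Fbln1 and Mfap2, so a site can be counted in more than 1 window. The SMAD letters in both Fbln1 windows are the same site. The count of genes takes any window of a gene, whereas the share over all genes is per window, so these are not alike. The 160 bases upstream of a start are printed for the member with the largest mean SM to OF difference (Fbln5), the member that changed most between sutures (Efemp1), the only member lower in SM (Efemp2) and the lowest one (Adamtsl4), 5′ to 3′ on the gene's strand, with capitals marking the motif matches.
Fbln5 (chr12:101819120-101819279, minus strand): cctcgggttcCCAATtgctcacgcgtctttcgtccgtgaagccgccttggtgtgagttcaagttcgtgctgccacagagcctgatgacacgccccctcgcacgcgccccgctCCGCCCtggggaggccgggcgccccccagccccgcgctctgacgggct
Efemp1 (chr11:28853045-28853204, plus strand): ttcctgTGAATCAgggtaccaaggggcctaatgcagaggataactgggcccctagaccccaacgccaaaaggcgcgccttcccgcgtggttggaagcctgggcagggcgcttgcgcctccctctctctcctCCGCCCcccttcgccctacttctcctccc
Efemp2 (chr19:5473786-5473945, plus strand): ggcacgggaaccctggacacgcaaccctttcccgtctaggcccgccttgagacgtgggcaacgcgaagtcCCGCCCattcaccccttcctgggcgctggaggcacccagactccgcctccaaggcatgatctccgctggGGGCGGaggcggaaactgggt
Adamtsl4 (chr3:95687918-95688077, minus strand): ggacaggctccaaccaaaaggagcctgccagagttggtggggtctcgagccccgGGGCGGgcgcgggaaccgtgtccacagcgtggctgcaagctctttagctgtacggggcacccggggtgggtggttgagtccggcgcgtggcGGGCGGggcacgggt
Each of the 4 sequences holds a GC box. The stretch of Fbln5 also holds a CCAAT box 150 bases before the start, and that of Efemp1 the AP-1 letters 154 bases before it.

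The main question put to the members was whether the matrix between the bones differs from that at the bone edge. In the mean over the 12 comparisons, 9 of the 10 genes were higher in SM, where 28.6% of all genes tested were, and 1, Efemp2, was lower, where 27.9% were (edgeR quasi-likelihood test with Benjamini-Hochberg adjustment). Fbln5 and Fbn2 had the largest log2 differences, 1.81 ± 0.09 (SE), adjusted p = 1.24e-33, and 1.73 ± 0.09 (SE), adjusted p = 1.62e-31. Efemp1 (1.478), Fbln2 (1.23), Eln (1.15), Mfap2 (1.14) and Fbn1 (1.05) lay between 1 and 1.5 log2 units, Adamtsl4 (0.88) and Fbln1 (0.38) below 1, and Efemp2 at -0.25 ± 0.09 (SE), adjusted p = 0.0112. The median of the 10 was 1.15 log2 units, against 0.04 over all genes tested. The call for Efemp2 was lost without replicate 1, 2 or 4 (log2 difference -0.21 to -0.18, adjusted p = 0.07 to 0.123).

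Fbn2, the fibrillin most typical of embryonic microfibrils, was higher in SM in 12 of 12 comparisons, and all 5 SM libraries lay above all 5 OF libraries in each of them. Its levels ran from 164 to 1881 CPM (median 1143) in the 40 SM libraries and from 17.5 to 697 CPM (median 233) in the 60 OF libraries. In the sagittal suture at E18.5, Fbn2 stood at 1160, 1190, 1495, 1646 and 1615 CPM in SM and at 263, 159, 285, 172 and 163 CPM in the parietal OF. The lowest SM library there was several times above the highest OF library, and the log2 difference, 2.77 ± 0.30 (SE), adjusted p = 7.92e-13, was the largest of any member in the 12 comparisons. The smallest difference was in the coronal suture at E18.5 against the frontal OF, with 355, 355, 428, 331 and 298 CPM in SM and 177, 138, 193, 215 and 174 CPM in the OF. The groups did not overlap there either (log2 difference 0.98 ± 0.28 (SE), adjusted p = 0.0291), yet the call was lost without replicate 1, 2, 3 or 5 (0.90 to 1.03, adjusted p = 0.0505 to 0.152). Coronal SM held 164 to 428 CPM of Fbn2, below every library of frontal, lambdoid and sagittal SM, which held 689 to 1881 CPM. The summed level of the 6 ectocranial mesenchyme markers was 286 to 753 CPM in coronal SM and 1050 to 3125 CPM in the other SM groups, which did not overlap either, and its part in the Fbn2 difference was not tested. In uncaptured complete sutures of E18.5, run as normalization controls in 4 sets that each held all 4 sutures, Fbn2 likewise stood at 205 to 259 CPM in the coronal suture and at 322 to 806 CPM in the others.

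Fbn1 makes the fibrillin of microfibrils throughout life and is the gene of Marfan syndrome. It was higher in SM in 9 of 12 comparisons, and SM lay wholly above the OF in 11 of 12. Its highest group was lambdoid SM at E16.5, with 2100, 1492, 1585, 1180 and 3716 CPM, against 668, 335, 489, 742 and 814 CPM in the parietal OF. These groups were apart, with replicate 5 of SM far above the others (log2 difference 1.72 ± 0.24 (SE), adjusted p = 6.16e-09). In the coronal suture at E16.5 SM held 329.8, 556, 436, 293 and 243 CPM, the frontal OF 134, 215, 119.8, 138 and 83.6 CPM and the parietal OF 211, 301, 415, 191 and 157 CPM. The frontal OF lay below every SM library (1.43 ± 0.24 (SE), adjusted p = 1.3e-06), whereas the parietal OF overlapped SM (0.54 ± 0.23 (SE), adjusted p = 0.0576). The Fbn1 difference from the parietal OF passed with the replicate block (0.55, adjusted p = 0.0173), with DESeq2 (0.59, adjusted p = 0.0322) and with limma-voom (0.60, adjusted p = 0.0368), and the difference between the OFs was not tested. At E18.5 the coronal SM and frontal OF held 651, 574, 684, 625 and 611 CPM and 404, 396, 433, 488 and 518 CPM, which did not overlap but missed the threshold (0.49 ± 0.23 (SE), adjusted p = 0.32). In the sagittal suture at E16.5 the call was lost without replicate 1 or 2 (0.60 to 0.72, adjusted p = 0.0775 to 0.105).

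Eln encodes tropoelastin, the soluble monomer of the elastic core. It was higher in SM in 10 of 12 comparisons and without overlap in 8. The sagittal SM of E18.5 was its highest group, with 364, 391.9, 431, 458 and 460.3 CPM against 165, 119, 168, 118 and 104 CPM in the parietal OF, and the groups were far apart (1.64 ± 0.21 (SE), adjusted p = 2.23e-10). The largest difference was in the lambdoid suture at E16.5 against the parietal OF, the group with the least Eln. There SM held 197, 126, 173, 224 and 229 CPM and the OF 43.1, 35.2, 40.4, 60.0 and 71.6 CPM, again with no overlap (1.92 ± 0.21 (SE), adjusted p = 1.81e-12). Frontal SM and OF of E16.5, by contrast, held 251, 219, 219.6, 274 and 234 CPM and 274, 305, 142, 203 and 148 CPM. The OF spread on both sides of SM, and no difference passed (0.16 ± 0.20 (SE), adjusted p = 0.843). At E18.5 the frontal suture passed (0.65 ± 0.20 (SE), adjusted p = 0.0208), though not without replicate 4 or 5 (0.59 to 0.62, adjusted p = 0.0766 to 0.128), nor without the libraries of over 50% mitochondrial counts (0.59, adjusted p = 0.0665). The other comparison that missed the threshold was coronal SM against the frontal OF at E18.5 (0.50 ± 0.20 (SE), adjusted p = 0.196).

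Fbln5, a fibulin needed to assemble elastic fibres, was higher in SM in 11 of 12 comparisons and without overlap in 11. In the sagittal suture at E18.5, SM held 67.5, 80.8, 89.3, 73.4 and 87.0 CPM and the OF 13.5, 12.9, 17.6, 14.2 and 10.5 CPM (2.53 ± 0.29 (SE), adjusted p = 7.26e-12). The one comparison that missed the threshold was again coronal SM against the frontal OF at E18.5, with 60.8, 137, 72.8, 74.0 and 57.8 CPM in SM and 47.9, 39.1, 54.3, 68.3 and 57.8 CPM in the OF (0.59 ± 0.27 (SE), adjusted p = 0.293). These overlapped, and replicate 2 of SM was far above the rest. Fbln2, a larger fibulin that binds fibrillin and basement membrane proteins, was higher in SM in 10 of 12 comparisons. Its largest difference was in the frontal suture at E18.5, with 732, 893, 473, 756 and 809.5 CPM in SM and 278, 115, 294, 167 and 117 CPM in the OF, which lay apart (1.92 ± 0.29 (SE), adjusted p = 1.96e-07). The 2 misses were both coronal at E18.5 (0.44 against the frontal and 0.63 against the parietal OF). Coronal SM held 59.8 to 254 CPM of Fbln2 and the SM of the other sutures 470 to 893 CPM, with no overlap. The ectocranial and hypodermis marker sums given above were apart in the same direction, and their part was not tested. Most of the hypodermis sum was Sfrp2, so the 2 sums do not stand for separate cell types. The complete sutures held 116 to 148 CPM in the coronal suture, 120.1 to 166.5 CPM in the lambdoid and 314 to 427 CPM in the frontal and sagittal sutures, so that the coronal and lambdoid ones overlapped. At E16.5 the coronal call against the parietal OF (0.72 ± 0.28 (SE), adjusted p = 0.0361) was lost without replicate 2, 4 or 5 (0.53 to 0.74, adjusted p = 0.0811 to 0.155).

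Fbln1, which binds fibronectin and other matrix and basement membrane proteins, differed little between the regions. It was higher in SM in 3 of 12 comparisons, all lambdoid. With each suture and age fitted by itself it also passed in the lambdoid suture of E16.5 against the interparietal OF (0.50, adjusted p = 0.00367). Fitted so, it passed in the sagittal suture of E18.5 as well (0.37, adjusted p = 0.029). At E16.5 lambdoid SM held 86.6, 73.9, 86.0, 76.2 and 80.0 CPM and the parietal OF 39.4, 33.2, 32.8, 47.7 and 53.0 CPM, with no overlap (0.97 ± 0.22 (SE), adjusted p = 0.00036). At E18.5 Fbln1 was higher against both OFs (0.57 interparietal and 0.74 parietal). Without replicate 3, 4 or 5 the interparietal call was lost (0.54 to 0.60, adjusted p = 0.0596 to 0.2), and without replicate 4 the parietal one (0.71, adjusted p = 0.0553). In the sagittal suture of E16.5, SM held 67.0, 64.2, 64.6, 69.0 and 58.9 CPM and the OF 66.2, 58.6, 81.9, 77.4 and 72.3 CPM, which overlapped (-0.14 ± 0.22 (SE), adjusted p = 0.768).

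Efemp1 and Efemp2 encode short fibulins of like domain order, and Efemp2 is required for elastin cross-linking. Efemp1 was higher in SM in 8 of 12 comparisons, with the largest differences in the lambdoid and sagittal sutures. Lambdoid SM at E18.5 held 53.4, 64.6, 74.6, 57.2 and 36.3 CPM and the parietal OF 9.39, 7.97, 8.87, 13.3 and 5.68 CPM, without overlap (2.66 ± 0.37 (SE), adjusted p = 8.12e-09). In the frontal suture the direction was not resolved: at E18.5 SM held 17.01, 15.8, 7.58, 14.8 and 31.1 CPM and the OF 14.9, 22.9, 13.5, 4.24 and 38.6 CPM, a full overlap (-0.11 ± 0.35 (SE), adjusted p = 0.921). Coronal Efemp1 was higher in SM at E16.5, with 74.5, 53.2, 81.7, 70.3 and 160.4 CPM in SM, 16.46, 35.1, 42.3, 25.2 and 58.9 CPM in the frontal OF and 26.9, 19.8, 13.6, 29.8 and 35.6 CPM in the parietal OF. SM lay above the whole parietal OF and overlapped 1 frontal OF library (1.31 and 1.81, adjusted p = 0.00218 and 2.17e-05). At E18.5 neither coronal comparison passed (0.06 and 0.18).

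Efemp2 was the exception of the family. It was higher in SM in 0 of 12 comparisons and lower in 3, all coronal. At E16.5 coronal SM held 11.3, 16.2, 10.9, 9.38 and 25.5 CPM, the frontal OF 35.9, 33.8, 7.39, 23.8 and 23.2 CPM and the parietal OF 25.9, 45.4, 14.8, 35.7 and 34.5 CPM. SM overlapped both, since 3 libraries of the frontal and 1 of the parietal OF lay below the highest SM library (-0.77 ± 0.26 (SE), adjusted p = 0.0192 against the frontal, and -1.10 ± 0.26 (SE), adjusted p = 0.000523 against the parietal OF). The frontal call was lost without replicate 1, 2 or 4 (-0.68 to -0.53, adjusted p = 0.0677 to 0.207). At E18.5 the difference from the parietal OF (-0.71 ± 0.26 (SE), adjusted p = 0.0425) was lost without replicate 1, 2, 3 or 4 (-0.75 to -0.43, adjusted p = 0.0528 to 0.363). Outside the coronal suture no comparison passed, with log2 differences at E18.5 from -0.41 in the sagittal (adjusted p = 0.266) to 0.54 in the frontal suture (adjusted p = 0.2). The only comparison without overlap went the other way. In the frontal suture at E16.5 SM held 50.9 to 60.2 CPM, above the OF at 44.0 to 50.7 CPM. With each suture and age fitted by itself, none of the 3 coronal differences passed (adjusted p = 0.106 to 0.403). The sagittal difference of E18.5 then passed as lower (-0.41, adjusted p = 0.0134). The coronal values stayed about as large, at -0.79 against the frontal and -1.10 against the parietal OF at E16.5, and -0.66 at E18.5. Its overlap with Mus81 limits how surely its counts are its own.

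Mfap2, a small protein of the microfibril surface, was higher in SM in 11 of 12 comparisons, by 0.81 to 1.49 log2 units where called. Frontal SM at E18.5 held 113, 115, 67.4, 103 and 122 CPM and the OF 49.6, 30.4, 57.9, 33.6 and 13.6 CPM, apart in every library (1.49 ± 0.27 (SE), adjusted p = 1.23e-05). Coronal SM at E18.5 spread widely, with 114, 121, 47.8, 39.4 and 28.2 CPM, and overlapped the frontal OF at 51.0, 57.5, 42.6, 35.1 and 25.2 CPM, where no difference passed (0.73 ± 0.26 (SE), adjusted p = 0.111). The lambdoid interparietal call of E16.5 (0.81 ± 0.26 (SE), adjusted p = 0.0268) was lost without replicate 1 or 4 (0.81 to 0.82, adjusted p = 0.0795 to 0.0949). Adamtsl4, a secreted protein of the ADAMTS-like family that promotes fibrillin microfibril formation, was higher in SM in 3 of 12 comparisons. Coronal SM at E18.5 was its highest group, with 27.7, 20.1, 28.9, 32.7 and 43.1 CPM against 6.42, 7.98, 8.84, 13.8 and 18.52 CPM in the parietal OF. These did not overlap (1.45 ± 0.46 (SE), adjusted p = 0.0172), and the call was lost without replicate 2 or 3 (1.42 to 1.47, adjusted p = 0.05 to 0.0611). At E16.5 the same SM held 0, 2.52, 3.12, 16.0 and 2.48 CPM and the parietal OF 0.759, 0.573, 2.79, 1.57 and 0.867 CPM. Replicate 4 alone carried that difference: it was 1.89 ± 0.50 (SE), adjusted p = 0.00164 with it and 0.73, adjusted p = 0.314 without it. The lambdoid parietal call of E16.5 (1.39 ± 0.47 (SE), adjusted p = 0.0203) was lost without replicate 3 or 5 (1.18 to 1.41, adjusted p = 0.0572 to 0.106). With each suture and age fitted by itself Adamtsl4 passed in 4 more comparisons, 3 lambdoid and 1 sagittal (0.85 to 1.05, adjusted p = 0.00414 to 0.0465). The coronal call of E16.5 was then lost (adjusted p = 0.389).

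Counted by comparison, 80 of the 120 tests of a member in a comparison passed, 77 higher and 3 lower in SM. At E16.5, 8 of 10 members passed in the coronal suture against the frontal OF, where 30.3% of all genes tested did, and 8 against the parietal OF (35.6% of all genes). In the lambdoid suture of that age 7 passed against the interparietal OF (11.2%) and 9 against the parietal OF (23.1%), in the sagittal suture 7 (17.7%) and in the frontal suture 4 (7.91%). At E18.5 the coronal suture had 1 member called against the frontal OF, Fbn2, where 3.46% of all genes were called, and 7 against the parietal OF (18%). The lambdoid suture then had 8 against the interparietal (19.6%) and 8 against the parietal OF (24.6%), the sagittal suture 7 (25.3%) and the frontal suture 6 (11.1%). In each comparison the share of members called was above that of all genes. The members were chosen with earlier results of these data known, so this is a description and no test of the list. In the coronal suture of E18.5 against the frontal OF it rested on Fbn2 alone. With each suture and age fitted by itself, the coronal suture of E16.5 gave 2 members against the frontal OF (Fbn1 and Fbln5, with 602 of 18551 genes called). Against the parietal OF it gave 5, and the total over the 12 comparisons was 78. The share of all genes in that fit is given only for the first of these counts, so the others have no background here. All 5 SM libraries lay above all 5 OF libraries in 70 of the 120, against 7.85% of the gene and comparison pairs over all genes tested, and all below in 0 of 120. The share of all genes lying wholly below is not given. The comparisons of a suture and age that had 2 OFs shared the same SM libraries. With edgeR and the replicate number as a block, 84 passed, with same-numbered regions sharing a litter id. The share of all genes called with the block is not given. The block added Fbn1 in the coronal suture against the parietal OF (0.55, adjusted p = 0.0173) and in the frontal suture (0.60, adjusted p = 0.0259), both at E16.5, Fbln1 in the lambdoid suture against the interparietal OF at E16.5 (0.47, adjusted p = 0.0296) and in the frontal suture at E18.5 (0.49, adjusted p = 0.0286), and Fbln2 in the coronal suture against the parietal OF at E18.5 (0.62, adjusted p = 0.0456). It lost Efemp2 in the coronal suture against the parietal OF at E18.5 (-0.61, adjusted p = 0.0664). A second sequencing library was deposited for 18 coronal samples. With these in place of the first, 67 passed, all higher in SM, so that no Efemp2 difference passed, and of the 11 Mfap2 calls 2 remained. Only those 18 were exchanged, so each coronal group mixed first and second libraries. For Mfap2 these differed by a median of 2.59 log2 units. Mfap2 calls were also lost in sutures without exchanged libraries, where the value held (sagittal E18.5, 1.10 against 1.13, adjusted p = 0.0857). In the coronal suture of E16.5 against the frontal OF the value fell from 1.17 to 0.61. The part of this mixing was not tested, and the share of all genes is not given.

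**Figure D2:**
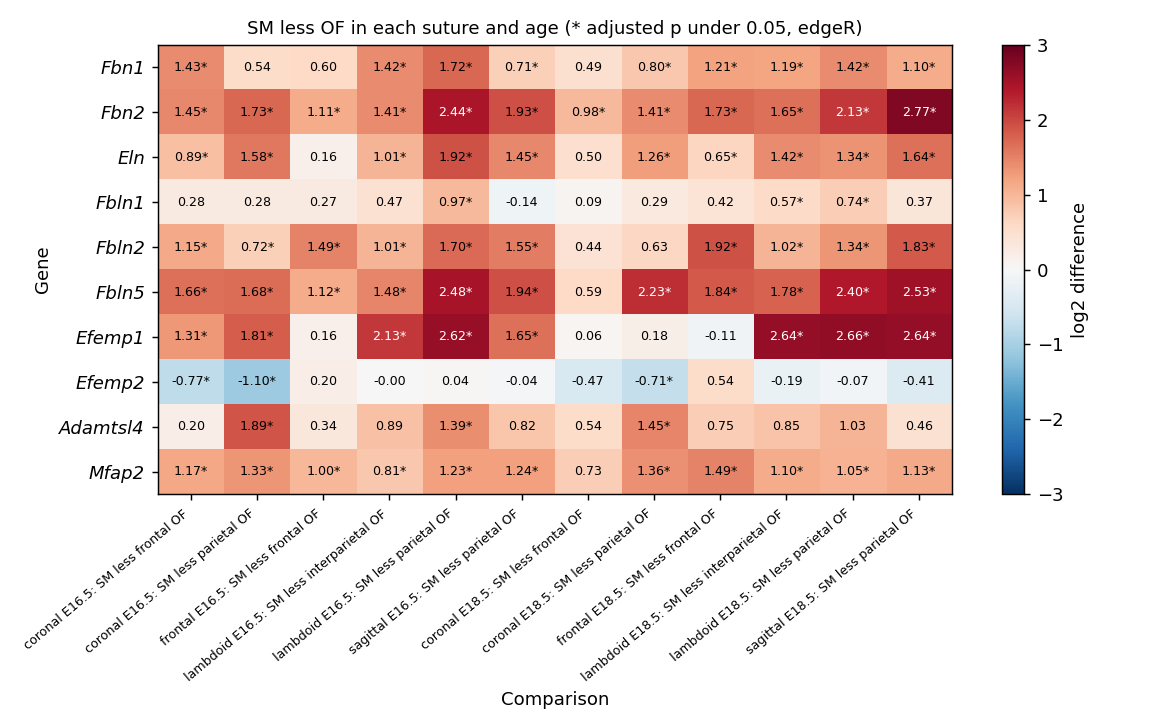
Log2 difference of SM less OF as a colour grid, with a row per gene and a column for each of the 12 comparisons; red is higher in SM, blue lower, and an asterisk marks a difference that passed. Fbn2 carries an asterisk in all 12, from 0.98 to 2.77, and Efemp2 is the only gene with an asterisk on values below 0, from -1.10 to -0.71, all in the coronal suture.

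The size of the SM to OF difference also varied between sutures, tested as the mean difference of a suture, over both ages and its OFs, less the mean of the other sutures. Such tests passed in 10 of 40 cases. Efemp1 passed in all 4 sutures, above the others in the lambdoid (1.51 ± 0.25 (SE), adjusted p = 2.93e-05) and sagittal suture (1.02 ± 0.28 (SE), adjusted p = 0.0194) and below them in the frontal (-1.80 ± 0.28 (SE), adjusted p = 2.44e-06) and coronal suture (-0.72 ± 0.25 (SE), adjusted p = 0.0297). In the coronal suture Fbln2 (-0.82, adjusted p = 0.00178) and Efemp2 (-0.79, adjusted p = 0.00116) were also lower, so 3 of 10 members passed where 21.3% of all genes did. In the frontal suture Eln was lower (-0.94, adjusted p = 2.21e-05) and Efemp2 higher (0.72, adjusted p = 0.0207), again 3 of 10 (5.51% of all genes). The sagittal suture had larger differences for Fbn2 (0.78, adjusted p = 0.0273) and Eln (0.58, adjusted p = 0.0188), 3 of 10 with Efemp1 (4.00%), and the lambdoid suture passed for Efemp1 alone (1.31%). With the replicate block Fbn1 and Fbln1 also passed in the lambdoid suture (0.51, adjusted p = 0.0256, and 0.47, adjusted p = 0.0098). Of the 10, 5 kept their call whichever replicate was left out: Fbln2 and Efemp2 in the coronal suture, Eln and Efemp1 in the frontal and Efemp1 in the lambdoid. The others were lost without replicate 1, 2 or 4 (Efemp1, coronal, -0.80 to -0.65, adjusted p = 0.0545 to 0.102, and sagittal, 0.87 to 1.07, adjusted p = 0.0691 to 0.151), 1, 2, 4 or 5 (Efemp2, frontal, 0.58 to 0.76, adjusted p = 0.0606 to 0.195, and Eln, sagittal, 0.49 to 0.59, adjusted p = 0.0517 to 0.142) and 1, 3, 4 or 5 (Fbn2, sagittal, 0.65 to 0.79, adjusted p = 0.0853 to 0.193). Depth and mitochondrial share differed between sutures in the same libraries, and their part was not tested.

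The other question was whether the members changed between E16.5 and E18.5, asked in each of the 10 regions. Of 100 tests 22 passed, 14 higher and 8 lower at E18.5, and 14 of the 22 were coronal. In the coronal frontal OF 8 of 10 members rose (24.4% of all genes tested were called there), in coronal SM 4 changed (27.1%) and in the coronal parietal OF 2 rose (20.6%). Elsewhere 1 was called in frontal SM (2.33%), 2 in the frontal OF of the frontal suture (4.34%), 1 in lambdoid SM (2.96%), 0 in the lambdoid interparietal OF (0.288%), 1 in the lambdoid parietal OF (0.986%), 0 in sagittal SM (1.12%) and 3 in the sagittal parietal OF (1.6%). The mitochondrial share ran higher and the genes detected lower in the coronal libraries of E16.5 than in those of E18.5, with the overlap given above. Cell markers moved with age as well. In the coronal frontal OF the summed level of the 10 osteoblast markers was 8059 to 15790 CPM at E16.5 and 3206 to 6730 CPM at E18.5 (3 of 10 lower and 1 higher by the same test), and that of the 8 pericyte and smooth muscle markers was 157 to 526 CPM and 681 to 1274 CPM (6 of 8 higher). The 7 macrophage markers summed to 65.5 to 86.2 CPM and 130 to 156 CPM there (5 of 7 higher). In coronal SM the macrophage sum was 31.3 to 92.3 CPM at E16.5 and 171 to 286 CPM at E18.5 (7 of 7 higher), and in the coronal parietal OF the pericyte sum was 202 to 388 CPM and 556 to 834 CPM (6 of 8 higher, 1 lower). The 7 chondrocyte markers summed to 84.0 to 127 CPM and 243 to 332 CPM in coronal SM, and to 64.3 to 116 CPM and 141 to 195 CPM in the coronal frontal OF (1 of 7 higher in each). The 7 endothelial markers summed to 111 to 399.5 CPM and 54.4 to 88.6 CPM in the coronal parietal OF (4 of 7 lower). None of these pairs of ranges overlapped. The part of library quality and of these cells in the members' changes was not tested, and litter id and age cannot be told apart. With each suture fitted by itself, both its ages together, 23 tests passed, 9 higher and 14 lower, and 6 of them were coronal. The share of all genes called in that fit is not given, so these counts have no background here. That fit lost 8 coronal calls, among them Fbn2, Eln, Fbln1, Fbln2 and Mfap2 in the frontal OF (adjusted p = 0.0805 to 0.23), which left 3 there (Fbn1, Fbln5 and Adamtsl4). The log2 values of the lost frontal OF calls hardly moved. Fbn2 went from 1.08 to 1.07, Fbln2 from 0.87 to 0.86, Mfap2 from 0.86 to 0.85 and Fbln1 from 0.72 to 0.70, with Eln at 0.56 in both. It lost Efemp1 in frontal SM as well (adjusted p = 0.061) and gained 10 calls outside the coronal suture, 4 of them in sagittal SM, so that the coronal share and the balance of directions both changed with this choice.

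Adamtsl4 showed the largest change. Coronal SM rose from 0, 2.52, 3.12, 16.0 and 2.48 CPM at E16.5 to the 20.1 to 43.1 CPM given above, with no overlap (2.66 ± 0.48 (SE), adjusted p = 1.5e-05), and it rose in the coronal frontal OF (2.32 ± 0.48 (SE), adjusted p = 0.000158) and parietal OF (3.10 ± 0.51 (SE), adjusted p = 3.85e-06). In SM the value was 3.87 without replicate 4, which held the 16.0 CPM of E16.5, 4.28 with limma-voom and from 2.33 to 2.95 in the other settings, and it passed in all of them. First and second libraries of the same coronal sample differed in Adamtsl4 by -1.54 to 6.37 log2 units, so single low values are uncertain. In the other sutures no Adamtsl4 test passed. Fbn1 went opposite ways by suture. It rose in the coronal frontal OF, from 134, 215, 119.8, 138 and 83.6 CPM to 404, 396, 433, 488 and 518 CPM, with the ages well apart (1.70 ± 0.24 (SE), adjusted p = 5.54e-08), and in coronal SM (0.76 ± 0.23 (SE), adjusted p = 0.00962), a call lost without replicate 1 or 4 (0.68 to 0.70, adjusted p = 0.0581 to 0.0682). It fell in the frontal OF of the frontal suture (-1.08 ± 0.23 (SE), adjusted p = 0.00227), lost without replicate 4 (-0.86, adjusted p = 0.0538), and in lambdoid SM (-1.02 ± 0.23 (SE), adjusted p = 0.00357), lost without replicate 5, the library of 3716 CPM at E16.5 (-0.56, adjusted p = 0.262). In that frontal OF the sum of the 8 dura mater markers was 170 to 226 CPM at E16.5 and 77.4 to 157 CPM at E18.5 (0 of 8 passed), and that of the 6 erythroid markers 873 to 1673 CPM and 72.1 to 857 CPM (1 of 6 lower). Neither pair of ranges overlapped, and the part of these cells was not tested. In lambdoid SM no marker list had sums that were apart between the ages.

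Fbln5 rose in the coronal frontal OF from 18.8, 13.7, 4.45, 16.6 and 16.7 CPM to 47.9, 39.1, 54.3, 68.3 and 57.8 CPM, with every E18.5 library above every E16.5 library (1.93 ± 0.28 (SE), adjusted p = 1.76e-07). The osteoblast marker sum was lower and the pericyte sum higher in the same E18.5 libraries, as given above. The Fbln5 rise in coronal SM (0.86 ± 0.27 (SE), adjusted p = 0.0126) was lost without replicate 2 (0.58, adjusted p = 0.11). Fbn2 (1.08), Fbln2 (0.87), Mfap2 (0.86), Fbln1 (0.72) and Eln (0.56) also rose in the coronal frontal OF, with adjusted p between 0.00294 and 0.031. Of these, Fbn2 kept its call whichever replicate was left out. The others lost it without replicates 4 or 5 (Fbln2, 0.61 to 0.78, adjusted p = 0.0739 to 0.171), 1 (Mfap2, 0.69, adjusted p = 0.0763), 1, 4 or 5 (Fbln1, 0.57 to 0.60, adjusted p = 0.0656 to 0.0935) and 3, 4 or 5 (Eln, 0.46 to 0.47, adjusted p = 0.122 to 0.151). With the second coronal libraries in place of the first, in groups that then mixed both kinds, the Mfap2 value turned to -0.09. The Fbn2 rise in the coronal parietal OF (0.92 ± 0.28 (SE), adjusted p = 0.0136) was lost without replicate 4 or 5 (0.50 to 0.71, adjusted p = 0.0978 to 0.268).

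Efemp1 was lower at E18.5 in all 10 regions by value and passed in 3 of them. Coronal SM fell from 53.2 to 160 CPM at E16.5 to 28.3, 24.5, 24.2, 25.6 and 30.8 CPM at E18.5, with no overlap (-1.72 ± 0.35 (SE), adjusted p = 9.05e-05). In frontal SM the libraries went from 22.0, 54.7, 32.0, 55.2 and 39.0 CPM to 17.01, 15.8, 7.58, 14.8 and 31.1 CPM, with overlap (-1.23 ± 0.35 (SE), adjusted p = 0.0355), a call lost without replicate 1, 2, 3 or 4 (-1.40 to -1.06, adjusted p = 0.0605 to 0.286). Several marker sums of frontal SM were apart between the ages. They were lower at E18.5 for dura mater (216 to 430.5 CPM, then 146 to 188 CPM, 0 of 8 passed) and proliferating cells (722 to 834 CPM, then 402 to 529 CPM, 4 of 5 lower). They were higher for hypodermis (1356 to 1766 CPM, then 2544 to 2986 CPM, 1 of 6 higher and 1 lower), ectocranial mesenchyme (1150 to 1924 CPM, then 2377 to 3125 CPM, 1 of 6 higher) and mast cells (57.8 to 143 CPM, then 295 to 452 CPM, 1 of 5 higher). The keratinocyte sum was at most 3.42 CPM in any of these libraries. The hypodermis sum has the limit given above for Sfrp2. The part of these cells in the Efemp1 value was not tested. In the sagittal parietal OF Efemp1 (-1.42 ± 0.37 (SE), adjusted p = 0.021), Fbn2 (-1.07 ± 0.28 (SE), adjusted p = 0.0242) and Fbln5 (-1.003 ± 0.28 (SE), adjusted p = 0.0384) were all lower, and each of these calls was lost without replicate 1, 3, 4 or 5 (adjusted p up to 0.223). The osteoblast marker sum there was 5832 to 10070 CPM at E16.5 and 11750 to 23120 CPM at E18.5 (4 of 10 higher), the endothelial sum 35.9 to 92.4 CPM and 168 to 282 CPM (6 of 7 higher) and the pericyte sum 255 to 314 CPM and 397 to 520 CPM (1 of 8 higher). None of these overlapped, and their part was not tested. Mfap2 fell in the frontal OF of the frontal suture (-0.90 ± 0.26 (SE), adjusted p = 0.0301), lost without replicate 2, 4 or 5 (-0.87 to -0.73, adjusted p = 0.0953 to 0.272), in the libraries whose lower dura mater and erythroid sums at E18.5 are given above. Eln, by contrast, had a difference of 0.0005 to 1.05 in the 10 regions and also passed in the lambdoid parietal OF, where it went from 43.1, 35.2, 40.4, 60.0 and 71.6 CPM to 89.5, 104, 133, 96.7 and 96.4 CPM with no overlap (1.05 ± 0.21 (SE), adjusted p = 0.00111). Without replicate 3 that call was lost (0.88, adjusted p = 0.0529). In the same libraries the pericyte sum was 271 to 362 CPM at E16.5 and 448 to 585 CPM at E18.5 (1 of 8 higher), and the dura mater sum 47.9 to 61.3 CPM and 29.8 to 37.2 CPM (0 of 8 passed), each without overlap, and their part in the Eln rise was not tested. In the mean of the SM groups Eln (0.36 ± 0.10 (SE), adjusted p = 0.00912) and Fbln1 (0.34 ± 0.11 (SE), adjusted p = 0.0272) were higher, 2 of 10 where 5.14% of all genes were, and Efemp1 lower (-1.03 ± 0.17 (SE), adjusted p = 4.32e-06), 1 of 10 where 5.92% were. The mean of the OF groups gave 3 of 10 higher (9.30% of all genes), Adamtsl4 (0.86), Eln (0.38) and Fbln1 (0.31), and 1 of 10 lower (8.62%), Efemp1 (-0.83, adjusted p = 5.53e-06). The Eln mean in SM was lost without replicate 2 (0.27, adjusted p = 0.0934) and the Fbln1 mean in SM without replicate 1, 4 or 5 (0.24 to 0.32, adjusted p = 0.0648 to 0.288), while that in OFs was lost without replicate 1 (0.22, adjusted p = 0.148).

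**Figure D3:**
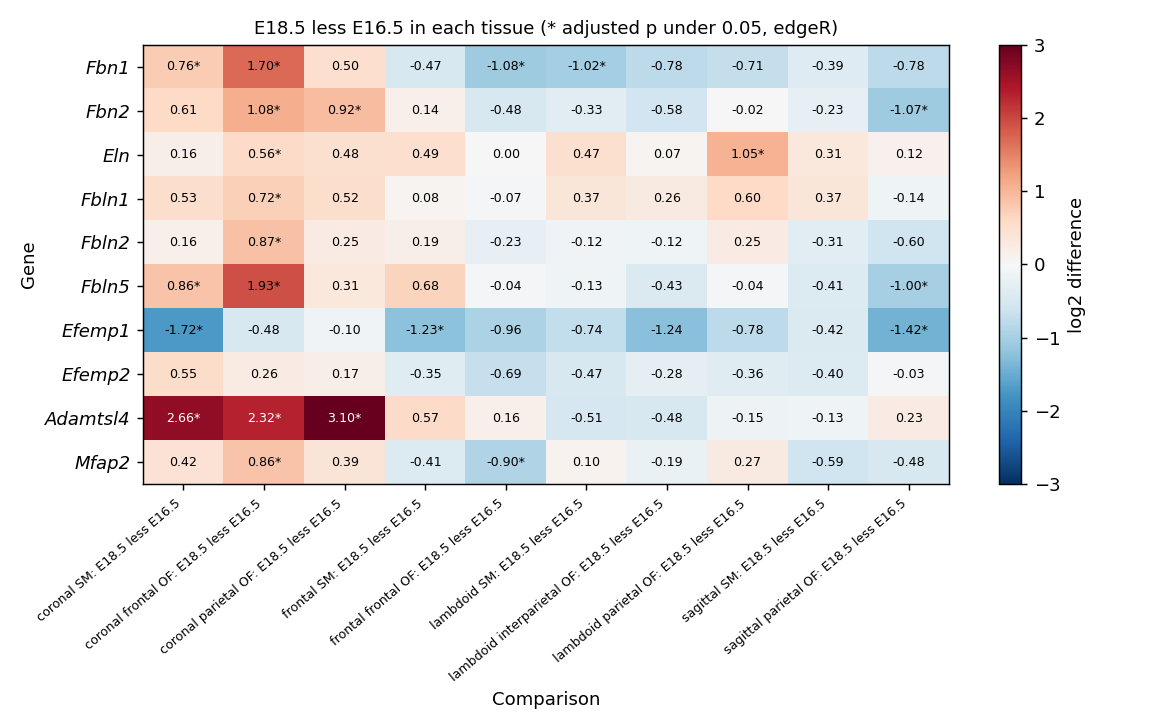
Log2 difference of E18.5 less E16.5 as a colour grid, with a row per gene and a column for each of the 10 captured regions; red is higher at E18.5, blue lower, and an asterisk marks a difference that passed. Efemp1 lies below 0 in all 10 regions, and the largest values are those of Adamtsl4 in the 3 coronal regions, from 2.32 to 3.10.

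Whether the SM to OF difference itself changed with age was tested as an interaction. It passed for 1 gene in 1 of 6 such comparisons, Efemp1 in the coronal suture against the parietal OF, where the log2 difference was 1.81 at E16.5 and 0.18 at E18.5 (change -1.63 ± 0.48 (SE), adjusted p = 0.0262). That is 1 of 10 members where 7.06% of all genes passed. Without replicate 1, 3, 4 or 5 the call was lost (-1.71 to -1.34, adjusted p = 0.0517 to 0.0888). Against the coronal frontal OF 0 of 10 passed (7.67% of all genes), as in the frontal suture (0.00506%), the lambdoid suture against the interparietal (0.0658%) and the parietal OF (0.0304%) and the sagittal suture (0.0304%). With the replicate block 3 passed, and the share of all genes in that fit is not given. They were the same Efemp1 difference and, against the coronal frontal OF, Fbn1 (-0.91, adjusted p = 0.0253) and Fbln5 (-1.19, adjusted p = 0.0407). Without the block Fbn1 and Fbln5 missed the threshold (adjusted p = 0.0607 and 0.0707).

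Across the 20 group means on the log2 scale, the members fell into partly shared patterns, given here as a description over groups that share sutures and depth. Fbn2, Fbln2 and Mfap2 ran closest together, with Pearson's r of 0.95 for Fbn2 and Mfap2, 0.94 for Fbn2 and Fbln2 and 0.93 for Fbln2 and Mfap2. Eln ran closest to Fbln5 (0.88), and Efemp1 and Efemp2 had the lowest value of any pair (-0.41). Over all genes tested, the closest to Fbn2 were Arhgef16 (0.98) and Gstt1 (0.97), to Fbn1 Arnt2 (0.93) and Ccdc120 (0.92), and to Mfap2 Pxdn (0.95) and Thra (0.95). For Eln they were Smoc2 (0.95) and Mfap4 (0.94), itself a microfibril-associated protein of elastic fibres. Fbln1 was closest to Rras (0.91) and Gm21009 (0.88), Fbln2 to Slc4a3 (0.97) and Col9a2 (0.97), and Fbln5 to Prickle1 (0.96) and Lama2 (0.96). The closest to Efemp1 were C2cd3 (0.85) and Arhgap32 (0.85), to Efemp2 Nisch (0.96) and Tmem259 (0.95), and to Adamtsl4 Gm44418 (0.93) and Gm12941 (0.92).

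The other 24 genes of the elastic fibre system, listed by function, were read in the same mean of SM less OF. Of these, 17 were higher and 3 lower in SM, where 28.6% and 27.9% of all genes tested were. Their median log2 difference was 0.72 (0.04 over all genes). All 4 latent TGF-beta binding proteins, which tether the growth factor to microfibrils, were higher, led by Ltbp2 (1.93 ± 0.14 (SE), adjusted p = 2.13e-22). Among the microfibril-associated proteins and emilins 3 of 5 were higher, Mfap4 (1.59 ± 0.07 (SE), adjusted p = 2.22e-38), Emilin3 (1.23 ± 0.14 (SE), adjusted p = 2.73e-12) and Emilin2 (1.17), while Mfap5 and Emilin1 did not pass (-0.05 and 0.0004). Of 8 ADAMTS and ADAMTS-like genes 6 were higher, most of all Adamtsl3 (2.81 ± 0.21 (SE), adjusted p = 1.39e-21), and both fibulin relatives, Hmcn1 (1.28 ± 0.05 (SE), adjusted p = 1.83e-40) and Fbln7 (0.84), were higher. The lysyl oxidases, the enzymes that cross-link elastin and collagen, were split: Loxl1 (0.82) and Loxl3 (0.68) were higher, and Lox (-0.32), Loxl2 (-0.46) and Loxl4 (-4.03 ± 0.17 (SE), adjusted p = 3.31e-39) lower. Loxl4 had the largest difference of all 34 genes and was lower in SM in each of the 12 comparisons, by values from -5.10 to -2.32. Osteoblast markers were lower in SM in the same comparisons, and their part in the Loxl4 difference was not tested.

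**Figure D4:**
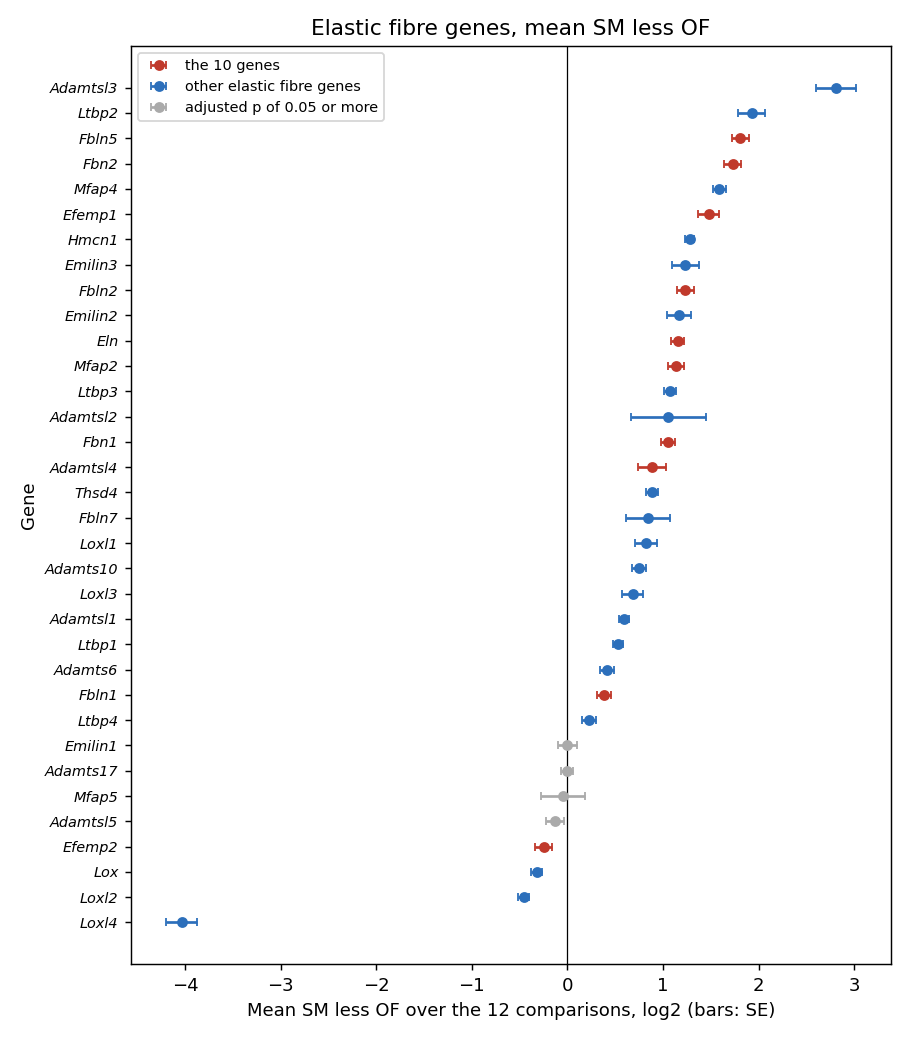
Mean log2 difference of SM less OF (horizontal axis, bars for the SE) for the 10 members (red) and the 24 other elastic fibre genes (blue), ordered by value, with grey for genes that did not pass. Loxl4 at -4.03 and Adamtsl3 at 2.81 are the extremes, and 26 of the 34 genes are called higher in SM (28.6% of all genes tested).

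In the coronal scRNA-seq data, 4831 of 7639 barcodes were kept (468 and 338 in replicates 1 and 2 of E16.5, 2449 and 1576 in those of E18.5). The ages are those of the sample labels, and the names of the deposited matrices carry an E16 code for all 4 libraries, those labelled E18.5 included. The E16.5 libraries were shallow, with medians of 2502.5 and 2127.5 unique molecular identifiers (UMIs) a cell against 18619 and 7112.5 at E18.5, and kits and digestion days differed between ages, so that age and library cannot be told apart. The 2 libraries of E16.5 shared 1 barcode, those of E18.5 shared 5, and libraries of different ages shared 0. Cells were clustered within each age without using the members, and clusters were named from fixed marker lists. With 2 libraries an age no test was run, and each value is the CPM of UMIs summed over a class in 1 library, with an exact Poisson interval for counting error only. The E16.5 hypodermis-like class, led by Clec3b and Pi16, held 123 cells of replicate 1 and 1 of replicate 2 so that this class and that library cannot be told apart. Clusters called unnamed 1, 2, 5 and 6 met the rule for no list, so no class was named suture mesenchyme. At E18.5 that list was the nearest for clusters 5 (800 cells) and 6 (558 cells). Of its markers, 0 and 2 were more than 1 log2 unit above the other cells. Tnn, Tnc and Hhip were among the leading genes of cluster 6. No member was highest or next highest in cluster 5 or 6, and their levels are not given. No doublet caller was run.

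Fbn2, Fbln2 and Fbln5 had their highest level in the ectocranial mesenchyme-like class of all 4 libraries. The authors mapped their own populations with Igfbp3 (E16.5) or Col8a1 (E18.5) to an outer layer above the bones. The class here is marked by both genes, and its position was not measured. For Fbn2 it held 1342 CPM (1200.5 to 1495, 329 UMIs) and 1229 CPM (960.2 to 1551, 71 UMIs) at E16.5, and 687 CPM (672 to 702, 8311 UMIs) and 862 CPM (806 to 922, 865 UMIs) at E18.5. The class next in order at E18.5 held 235 and 205 CPM, and macrophage-like cells, which should lack the gene, 22.4 and 14.2 CPM. Fbln2 followed with 664 and 729 CPM in that class at E18.5, and Fbln5 with 279 and 275 CPM, against 27.1 and 10.4, and 13.1 and 10.4 CPM in macrophage-like cells. Fbn1 at E18.5 was highest in pericyte and smooth muscle-like cells in replicate 1 (224 CPM (180.5 to 274, 93 UMIs)), close to the ectocranial class of that library (204 CPM), and in the ectocranial class in replicate 2 (311 CPM (277 to 348, 312 UMIs)). At E16.5 the hypodermis-like cells of replicate 1 held most Fbn1 (3099 CPM (2905 to 3303, 946 UMIs)), several times the ectocranial class (693 CPM). In replicate 2, with 1 such cell, the ectocranial class led (554 CPM (379 to 782, 32 UMIs)). The part of hypodermis cells in the bulk Fbn1 and Efemp1 values was not tested.

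Mfap2 and Fbln1 were highest in the dura mater-like class in all 4 libraries, Mfap2 with 1196, 1185, 3034 and 1902 CPM and Fbln1 with 364, 309, 1068 and 1059 CPM. The unnamed cluster 2 of E18.5, led by Gpha2, Scara5 and Nppc, came next for both, with 2032 and 1809.8 CPM of Mfap2 and 633 and 619.5 CPM of Fbln1, and the 2 classes were close for Mfap2 in replicate 2. The same cluster held most Eln at E18.5 (1863 CPM (1830.2 to 1897, 11978 UMIs) and 2632 CPM (2496 to 2774, 1402 UMIs)), while at E16.5 the dura mater-like class did (976 and 804 CPM). Efemp1 was sparse. It was led at E18.5 by the dura mater-like class (35.0 CPM (29.9 to 40.7, 169 UMIs) and 56.6 CPM (34.6 to 87.4, 20 UMIs)), and at E16.5 by the hypodermis-like cells of replicate 1 (603 CPM (519 to 696, 184 UMIs)) with 3 UMIs in the leading class of replicate 2. Adamtsl4 had at most 36.8 CPM in any E18.5 class, and 0 UMIs in the 338 cells of replicate 2 of E16.5, with an upper bound of 4.82 CPM in the 313 of them that were not osteoblast-like. In replicate 1 of E16.5 26 of its 27 UMIs were in hypodermis-like cells.

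Osteoblast-like cells, marked by Ibsp and Spp1, held less of every member than the other cells at E18.5 except Efemp2, in both libraries. Fbn1 stood at 14.3 CPM (10.2 to 19.6) in osteoblast-like cells and 101.1 CPM (98.4 to 104) in the other cells in replicate 1, and at 10.7 CPM (7.31 to 15.1) in osteoblast-like cells and 96.0 CPM (90.2 to 102) in the other cells in replicate 2. Macrophage-like cells, which should lack these genes, held 13.1 and 6.61 CPM of Fbn1, so that the osteoblast-like values were near this background. Eln stood at 114 and 169 CPM in osteoblast-like cells against 936 and 792 CPM in the others. Macrophage-like cells held 99.2 and 66.1 CPM of Eln, with a UMI in 76.1% and 58.1% of them, at median depths of 18510 and 13560 UMIs against 23080 and 7755 in osteoblast-like cells. The osteoblast-like Eln value of replicate 1 was thus close to background. Mfap2 was at 133 and 67.0 CPM in macrophage-like cells and at 195.5 and 235 CPM in osteoblast-like cells, and Fbln1 at 54.4 and 19.8 CPM and at 71.7 and 60.4 CPM. The levels of Fbln2 in osteoblast-like cells (23.9 and 21.0 CPM) and of Fbln5 (9.92 and 8.68 CPM) were below those in macrophage-like cells in 1 and in both libraries, and are read as background in these. Efemp2 was the reverse, at 215 CPM (197.6 to 233) in osteoblast-like cells and 148 CPM (145 to 151) in the other cells in replicate 1 (log2 difference 0.54) and at 194 CPM (179 to 211) in osteoblast-like cells and 102 CPM (96.0 to 108) in the other cells in replicate 2 (0.93). The intervals did not overlap in either library, and macrophage-like cells held 45.5 and 21.7 CPM of Efemp2. Osteoblast-like cells were not the highest class for Efemp2, which was dura mater-like in replicate 1 (259 CPM) and chondrocyte-like in replicate 2 (313 CPM, 20 UMIs). At E16.5 replicate 2 had 158 CPM (86.6 to 266) in osteoblast-like cells and 95.4 CPM (74.7 to 119.9) in the other cells, with overlapping intervals, and replicate 1 had 2 UMIs in 19 osteoblast-like cells, too few to read. The direction of Efemp2 in coronal bulk tissue, lower in SM than in OFs, and its level in osteoblast-like cells are given side by side and were not compared by a test.

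**Figure D5:**
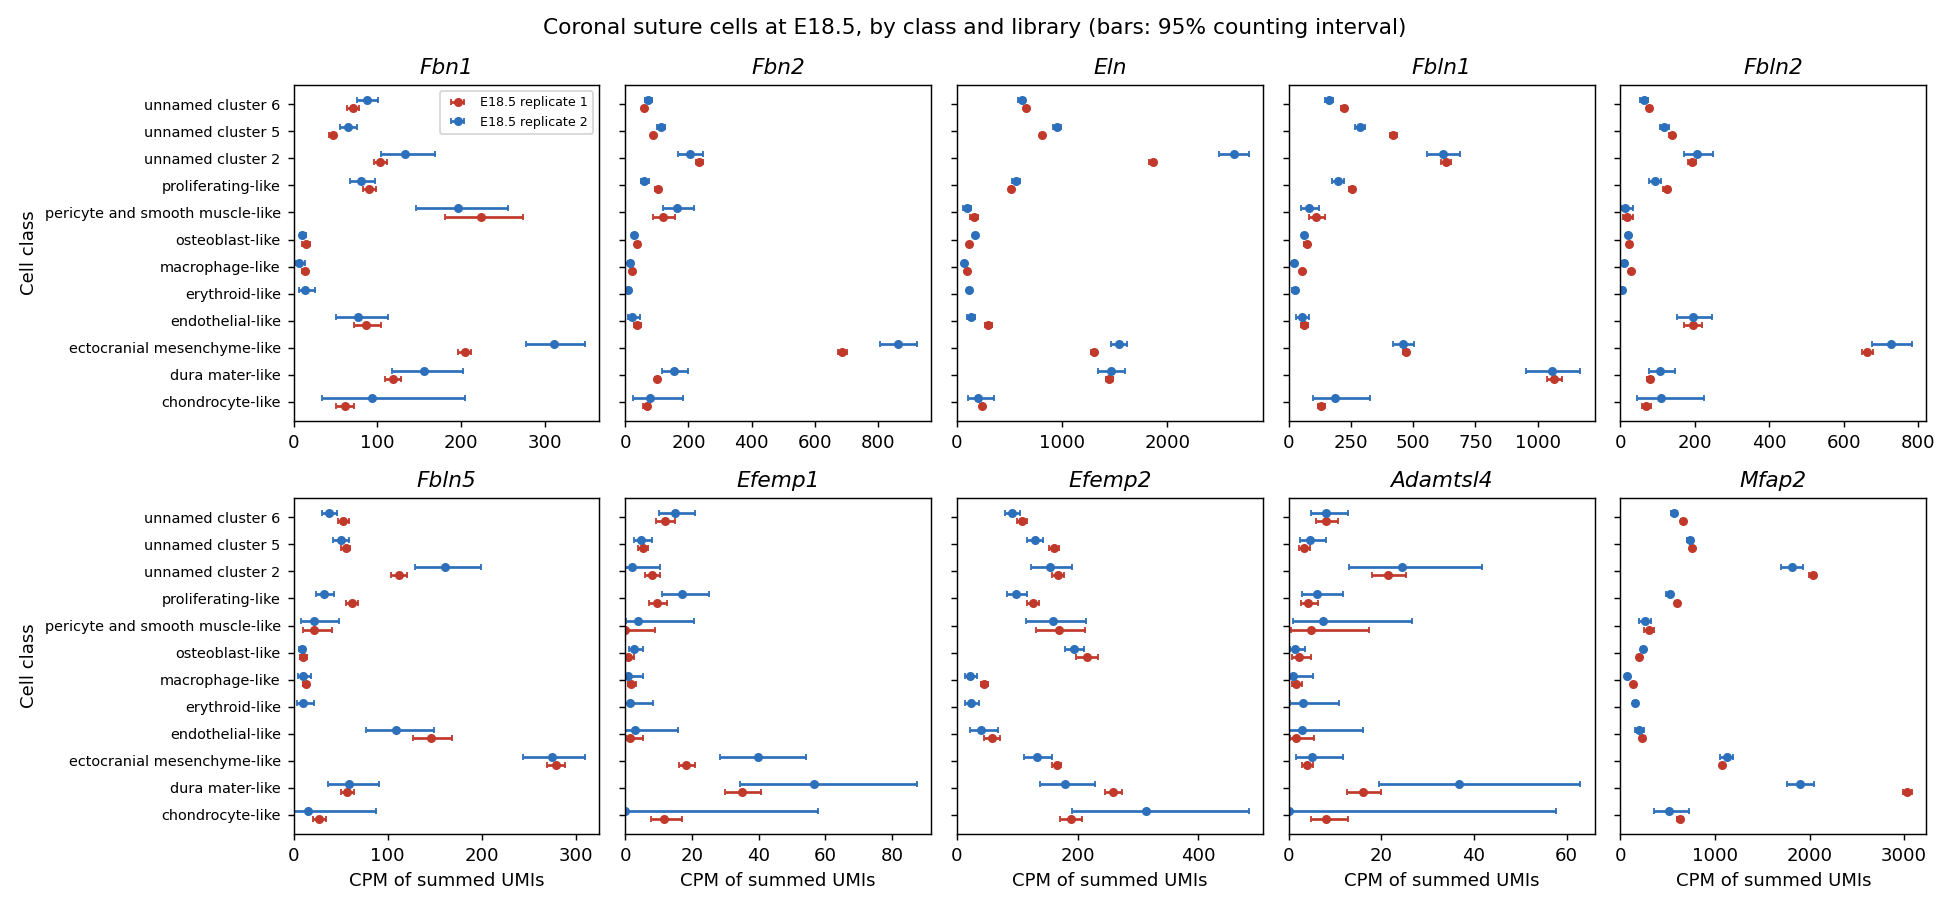
CPM of summed UMIs of the 10 genes by cell class in the 2 coronal scRNA-seq libraries of E18.5, with 1 panel per gene, a row per class, 1 colour per library and bars for the 95% counting interval. The ectocranial mesenchyme-like points are highest for Fbn2 (687 and 862), Fbln2 (664 and 729) and Fbln5 (279 and 275), and the dura mater-like points for Mfap2 (3034 and 1902) and Fbln1 (1068 and 1059).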

How the data were processed

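Suture mesenchyme and osteogenic fronts were captured by laser, RNA was purified with a PicoPure kit including DNase treatment and amplified (Ovation RNA-Seq V2), and libraries were made with Nextera XT. Amplified libraries carry no molecular identifiers, so counts include copies of the same molecule. Per the file headers and the submitters' processing notes, the deposited counts are whole read pairs per gene over GENCODE exons, made by the authors with cutadapt, STAR 2.5.3a (mm10) and featureCounts 1.6.4, ignoring strand, with 1 library per file. The deposited single-cell counts are unique molecular identifiers per gene and barcode (Cell Ranger, mm10), and kit versions differed between ages. A table of the authors' own log2 fold changes of fronts against mesenchyme was not used.

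Of 55487 gene ids, 55394 were matched to a symbol. The 100 first libraries of 20 groups were fitted together with edgeR 4.0.16 (quasi-likelihood, TMM, R 4.3.3) after a filter of at least 1 CPM in over 10% of libraries, which left 19768 genes, with Benjamini-Hochberg adjustment over all of these and a threshold of 0.05. Library totals were 7305627 to 34518477 counts. CPM values, counts scaled to a common library total, use TMM-scaled totals. Per-length levels divide CPM by annotated exon length. No 2 libraries were identical. The 5 samples of a group had different litter ids, many alike but for the last number, so some may be littermates, and p-values measure only the spread between these samples. Same-numbered regions of a suture carried 1 litter id in 40 of 40 sets, so the numbers pair the samples, and the median correlation of their residuals was 0.0998 in 60 pairs, 29 of them over 0.1, against -0.0268 between other numbers. Alternatives used DESeq2 1.42.0, limma 3.58.1, other scalings and filters, a replicate block, the second coronal libraries, each suture alone and each replicate left out. A suture alone meant its libraries of 1 age for SM against OF, and of both ages for the tests of age. Runs without mitochondrial genes, and without the 3 libraries over 50% mitochondrial counts, were chosen after seeing the data. The scripts were tested on simulated counts.

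Cells with more than 800 genes and within 3 median absolute deviations were clustered per age with scanpy 1.11.5 (2000 variable genes without the members, 13 components, 100 neighbours, resolution 0.8). UMIs were summed per class and library, with exact Poisson intervals at 95% that cover counting error only.

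The members, gene lists and markers were chosen with earlier results of these data known. Named genes were all 10 members, the 6 of 24 other elastic fibre genes with the largest mean difference, the 2 genes most alike to each member over the group means, and osteoblast markers. Others named within a list were chosen after their values were seen.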

Additional observations from a re-analysis of the deposited data

Results flagged for a closer look

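Among the 200 sets of 5 libraries (10 genes in 20 groups), 11 held a library whose gap to its nearest neighbour took up more than 0.71 of the range of the set, where chance gives about 1 in 20. That count is near what chance gives. Of these 11, 9 were coronal, and of the 100 libraries in all the coronal suture gave 15 at each age.

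Both Adamtsl4 cases were high values: 16.0 CPM in coronal SM replicate 4 of E16.5, where the others held 0 to 3.12 CPM, and 27.03 CPM in the coronal frontal OF replicate 3 of E18.5 (others 17.9 to 20.3 CPM). The same frontal OF library was low for Fbln2, at 57.8 CPM against 103 to 116 CPM, and is the only library that stood out for 2 members. In the other libraries of that group, Efemp2 stood at 53.3 CPM in replicate 2 (others 17.9 to 27.96 CPM) and Fbln1 at 60.7 CPM in replicate 5 (others 77.8 to 82.9 CPM).

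In coronal SM, Efemp1 reached 160.4 CPM in replicate 5 of E16.5 (others 53.2 to 81.7 CPM), Fbln2 254 CPM in replicate 1 of E18.5 (others 91.8 to 131 CPM) and Fbln5 137 CPM in replicate 2 of E18.5 (others 57.8 to 74.0 CPM). Mfap2 was at 38.2 CPM in the coronal frontal OF replicate 2 of E16.5 (others 16.4 to 22.5 CPM). Outside the coronal suture only Fbln1 stood out, at 89.9 CPM in the frontal OF replicate 2 of E16.5 in the frontal suture (others 64.0 to 68.6 CPM) and at 107.5 CPM in sagittal SM replicate 1 of E18.5 (others 72.9 to 81.1 CPM).

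Tests of a difference between differences (edgeR, adjusted over all genes) passed in 11 cases. The log2 difference of SM less OF for Efemp1 against the coronal parietal OF changed by -1.63 between the ages. Between sutures, the coronal difference was lower than that of the others for Fbln2 (-0.82), Efemp2 (-0.79) and Efemp1 (-0.72). The frontal one was lower for Efemp1 (-1.80) and Eln (-0.94) and higher for Efemp2 (0.72), and the lambdoid one was higher for Efemp1 (1.51). The sagittal one was higher for Efemp1 (1.02), Fbn2 (0.78) and Eln (0.58).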

How the results depend on the processing

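The 80 calls of members between SM and OF became 67 to 84 under the other settings and 72 to 76 with a replicate left out, and the 10 calls in their mean 9 or 10 (9 to 10 with a replicate left out). The Efemp2 mean was the call lost, with DESeq2, median-ratio factors, total counts without TMM, the second coronal libraries in place of the first, or without replicate 1, 2 or 4. The 22 calls between ages, 14 higher and 8 lower, became 14 (10 and 4) with the second libraries in place and 11 to 23 with a replicate left out, 11 being without replicate 4. They were 17 and 5 with limma-voom and 9 and 14 with each suture by itself. The 1 call of an age difference of SM against OF became 3 with DESeq2, limma-voom or the replicate block, 2 with no low-count filter, and 0 with total counts, with the second libraries in place or summed, with each suture by itself or without the libraries of over 50% mitochondrial counts, and 0 to 2 with a replicate left out. Suture against the others gave 10 calls, 4 with the second libraries in place and 5 to 9 with a replicate left out. The shares of all genes called under these settings are not given, so changes in member calls have no background here. Total counts without TMM moved the median of all genes by up to 0.45 log2 units. The setting with second libraries in place mixed first and second libraries within each coronal group. Of 130 single values that passed, 34 lost their call with the second libraries in place, 12 with total counts, 20 of 103 with each suture by itself, 13 to 27 with a replicate left out and up to 9 otherwise, and 1 turned: Mfap2 in the coronal frontal OF between ages, from 0.86 to -0.092. The replicate block changed no call other than those named above. In osteoblast-like cells, 0 members were higher at E16.5, or 0 to 1 by single library, and 1 at E18.5 in every setting. The mean and the sutures against each other could not be fitted by suture alone, nor ages within a litter. The cause was not tested in any of these.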

Other observations

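The 18 second coronal libraries, which the labels tie to the same samples as 18 first ones, differed from them by gene. Mfap2 was higher in the second library in 18 of 18 pairs, with a median log2 difference of 2.59 (1.62 to 3.44), as were Eln (1.35, from 0.48 to 2.21) and Efemp2 (1.27, from 0.19 to 3.52). Efemp1 was higher in 0 of 18 (-0.53, from -1.64 to -0.11). Fbln1 (0.49) and Fbn2 (0.44) were higher in 17 of 18, Fbln2 (0.50) and Fbn1 (0.16) in 14, Adamtsl4 (0.23) in 11 and Fbln5 (-0.05) in 9. The range was widest for Adamtsl4, from -1.54 to 6.37, and that of Fbln5 was -1.32 to 1.41.

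The complete sutures of E18.5, 4 control libraries each with no separate replicate numbers, are given as ranges beside the captured regions of the same suture and age, all scaled together. In the coronal suture Mfap2 ran from 100.8 to 252 CPM (captured 19.95 to 119.7 CPM) and Efemp1 from 11.7 to 14.8 CPM, below the captured 15.3 to 36.2 CPM. Fbln1 in the frontal suture stood at 162 to 197 CPM (captured 35.9 to 109 CPM), Fbln5 in the sagittal suture at 97.2 to 122 CPM (captured 10.7 to 88.8 CPM), and Efemp2 in the lambdoid suture at 52.3 to 90.9 CPM (captured 26.8 to 49.1 CPM). Fbln2 in the lambdoid suture was below every captured library, at 120.1 to 166.5 CPM against 200.5 to 720 CPM. The complete libraries of 1 suture lay close together for Fbn1, as in the sagittal suture at 496 to 534 CPM, and spread widely for Eln (261 to 496.5 CPM there) and Efemp2 (45.4 to 78.0 CPM).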
